A study of Papio papio with 23 samples.

Results

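Whole-blood gene expression on day 2 after irradiation was compared between baboons (Papio papio) that went on to develop the severe form of the haematological acute radiation syndrome (HARS) and baboons that went on to develop a milder form. Members were chosen by the sample titles: 5 arrays of category H2-3 (medium to severe) and 4 arrays of category H1-2 (low to medium), which are 9 of the 23 arrays of the series. All animals were adult males with a mean age of 8.1 years (SD 3.3), and both groups had received gamma rays from a cobalt source over the total or a part of the body at an equivalent whole-body dose of 2.5 or 5 Gy. The labels give these doses for the study and not for single animals, so dose could not be compared. The same numbered baboons had been sampled on day 1, and 5 arrays of category H0 came from unexposed blood drawn before irradiation. Whether H0 baboons were among those irradiated is not stated in the labels.

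The severity of HARS follows from how many blood-forming cells of the marrow survive. Lymphocytes are killed directly and within hours to days, B cells being the most sensitive of them, whereas granulocytes and monocytes already in the blood are resistant and are released from stores early on. Damaged cells activate p53, which induces genes of cell cycle arrest, repair and death, and an early inflammatory reaction accompanies tissue injury. Whole blood mixes all of these cells. A lower signal of a cell type's genes can therefore come from fewer cells of that type or from less RNA per cell, and the 2 cannot be told apart here.

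RNA from blood stabilised in PAXgene tubes was hybridised to Agilent arrays of human probes, 1 array per sample, so a baboon base that differs from the probe can lower its signal. Values are log2 intensity minus the array's 75th percentile, called the level below. A difference of 1 is thus a doubling, and negative levels lie below the 75th percentile. Baboons are named by category and by their number in the titles, so replicates are animals. Blood markers were present on 9 of 9 arrays, with HBA2 (haemoglobin alpha) at 11.87 to 12.65 and CD14, B2M and PTPRC well above background throughout. Between 45.6 and 50.8% of probes were well above background on the 9 arrays.

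The 7 genes whose probes are printed here carry the differences described further on: 4 are B cell genes or genes of antigen presentation by B cells, WNT3 is the gene with the largest difference in its pathway, and TSPAN1 and IGFBP2 separated the categories on both slides. For each probe the first 30 of its 60 bases are given as the files hold them, 5′ to 3′ and all in lower case since no motif is marked. Positions are on the human build hg19, as the files give them for the whole probe. No gene annotation was used, so exon and UTR positions are not given. The TNFRSF13B probe lies on the minus strand at chr17:16852071-16852130, EBF1 on the minus strand at chr5:158123978-158124037, FCRLA on the plus strand at chr1:161683792-161683851 and HLA-DOB on the minus strand at chr6:32780663-32780722. The WNT3 probe lies on the minus strand at chr17:44841704-44841763, TSPAN1 on the plus strand at chr1:46651173-46651232 and IGFBP2 on the plus strand at chr2:217529086-217529145.
TNFRSF13B: agtggagaagttgaaaacaattcagacaac
EBF1: accagcagattggatgccttaacaatgcaa
FCRLA: gacataccagtctttagctggtgctatggt
HLA-DOB: ccaaatcatttacttttctgtggtccagcc
WNT3: gaagggggctttctttttagttctctaggg
TSPAN1: gtgtccatgtatctgtactgcaatctacaa
IGFBP2: ggagggggaagagaaatttttatttttgaa

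The 9 arrays did not form 2 clean groups. Their slides, numbered here in the order of scanning, were 5 and 6. Slide 5 held H1-2 baboons 1 and 2 with H2-3 baboons 1, 2 and 3, and slide 6 held H1-2 baboons 3 and 4 with H2-3 baboons 4 and 5. On the first principal component, which took 36.5% of the variance, H1-2 baboons 3 and 4 stood apart at 95.0 and 65.5. H1-2 baboons 1 and 2 lay at -17.2 and -35.0, among the 5 H2-3 arrays at -64.8 to 17.8. A shift of a whole slide cancels when categories are compared within it, but which baboons lay on a slide and the slide itself cannot be told apart. Values within each slide are therefore given beside those over all 9 arrays. The fit by slide was chosen after the data had been seen and sets 2 arrays against 2 or 3. Its p values rest on a spread of each gene pooled over all 23 arrays, not on the compared arrays alone.

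Over all 9 arrays, no gene passed the test between categories. Of 21130 genes tested with limma and Benjamini-Hochberg adjustment, 0 passed at 0.05 (0% of those tested) and the smallest adjusted p was 0.420. The unadjusted p lay under 0.05 for 2062 genes (9.76%), where 5% of all genes would be 1056.5. Of these, 1300 (6.15%) were higher in H2-3 and 762 (3.61%) lower. With the percentile taken over probes detected on all arrays, the split turned to 708 higher and 1353 lower, and the median of all genes moved from 0.02 to -0.09. Leaving out H1-2 baboon 3 gave 442 higher and 431 lower, and leaving out H1-2 baboon 4 gave 381 and 261. Without H1-2 baboon 2 the counts were 2556 and 1484, and without H2-3 baboon 4 they were 625 and 491. The 4 H1-2 and 5 H2-3 arrays did not overlap for 120 genes higher in H2-3 (0.568%) and 163 lower (0.771%).

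Within slide 6 the categories differed widely, and within slide 5 they did not pass the test for any gene. Within slide 6, 4507 genes passed in the limma fit by slide (21.3%), with 2550 higher in H2-3 (12.1%) and 1957 lower (9.26%), and 3755 of them differed at least 2-fold. Within slide 5, 0 passed (0%), although 1310 had an unadjusted p under 0.05 (6.2%). The difference between the slides was itself tested, and 2364 genes passed (11.2%). The H2-3 minus H1-2 difference was more positive on slide 6 for 867 (4.1%) and more negative for 1497 (7.08%). The split by slide was chosen after these same values had been seen. Calls within and between slides are therefore descriptions and no independent support.

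**Figure D1:**
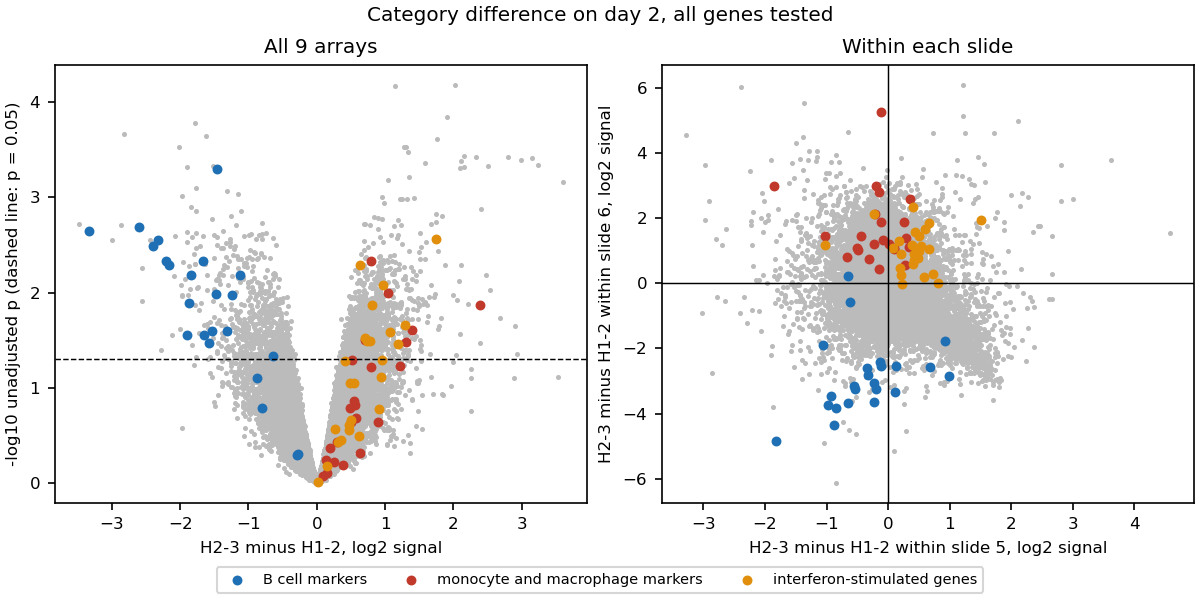
Left, the H2-3 minus H1-2 difference on day 2 (log2 signal) against -log10 of the unadjusted p for all 21130 genes tested; right, the same difference within slide 5 (x axis) and within slide 6 (y axis). B cell markers (blue) lie to the left and low on slide 6, monocyte and macrophage markers (red) to the right and high on slide 6, and interferon-stimulated genes (orange) lie mostly above 0 on both slides.

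B cell genes had the most negative median difference of the 26 lists. All 23 tested B cell markers were below 0, with a median difference of -1.57 against 0.02 over all genes, and 19 had an unadjusted p under 0.05 (background 3.61% for lower genes). None passed after adjustment. Under other processing settings 9 to 19 had an unadjusted p under 0.05 as lower. In 4 of the 23, TNFRSF13B, FCRL2, CD79B and IGLL1, the categories did not overlap (background 0.771%). Other kept probes of FCRL2 and IGLL1 differed by -0.44 and -0.38, against -2.39 and -0.64. The mean level of the list was -0.10, -0.02, 2.18 and 2.23 in H1-2 baboons 1 to 4, and -0.30, -0.68, -0.29, -0.97 and -0.36 in H2-3 baboons 1 to 5. H1-2 baboons 3 and 4 thus lay above the H0 arrays (1.16 to 1.80), and H1-2 baboons 1 and 2 lay just above the H2-3 arrays. Within slide 6 the median was -3.06 and 21 of 23 passed as lower in H2-3 (background 9.26%). Within slide 5 it was -0.35 and 0 passed (0%). For 15 of the 23 the difference between slides passed (background 7.08%). Without H1-2 baboons 3 and 4 the median over the other arrays was -0.44 and 1 gene had an unadjusted p under 0.05, and leaving out baboon 3 or baboon 4 alone gave 12 or 10.

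EBF1, the transcription factor that sets B cell identity, had levels of -1.84, -2.41, 1.06 and 1.19 in H1-2 and of -3.17, -3.91, -1.94, -4.60 and -1.88 in H2-3. H0 lay at -0.95 to 0.86. Here too H1-2 baboons 3 and 4 were the high arrays, and baboon 2 overlapped H2-3, while baboon 1 lay barely above the highest H2-3 array. The fitted difference was -2.60 ± 0.74 (SE, adjusted p = 0.508 in limma). The probe exceeded background clearly on 3 of 5 H2-3 arrays, and the fold was 4.68 with the dim arrays set to the floor. Its 2 other kept probes differed by -1.55 and -2.74 and were dim on most H2-3 arrays. Within slide 6 EBF1 was lower in H2-3 (adjusted p = 0.0042), and the difference between slides passed (adjusted p = 0.039).

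TNFRSF13B, which encodes TACI, the receptor for the B cell survival factors BAFF and APRIL, separated the categories. Its levels were -3.09, -2.68, -1.94 and -2.48 in H1-2 and -3.33, -4.50, -3.98, -3.72 and -4.51 in H2-3. All 5 H2-3 arrays lay below all 4 H1-2 arrays, and none of the 5 was well above background. Only a bound of at least 1.66-fold lower can thus be given (limma, adjusted p = 0.420). Under other processing settings the difference ran from -1.57 to -0.17, so the bound holds for the main settings only. It passed as lower within slide 6 (adjusted p = 0.017), where the size of the difference is likewise only bounded.

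Other B cell markers named by the rule lay in the same direction. BACH2, a repressor that keeps B and T cells from maturing, differed by -1.47 ± 0.52 (SE) and POU2AF1, a coactivator at immunoglobulin promoters, by -1.54 ± 0.64. A further kept probe of POU2AF1 differed by -0.16 only. The next 5 genes were chosen after their values were seen. VPREB1, a surrogate light chain of precursor B cells, exceeded background clearly in 3 of 4 H1-2 and 0 of 5 H2-3 baboons. With the dim H1-2 array kept in the H1-2 mean, it was at least 7.62-fold lower in H2-3 under the main settings (limma, adjusted p = 0.508). A further kept probe of VPREB1 differed by -3.03 and was well above background in 3 of 4 H1-2 and 1 of 5 H2-3 baboons. FCRLA, an Fc receptor-like protein of germinal centre B cells, had levels of -1.58, -1.66, 0.85 and 1.51 in H1-2 and of -3.53 to -1.33 in H2-3, so that H1-2 baboons 1 and 2 overlapped the severe category. CD79B, the signal chain of the B cell receptor, had levels of -0.01, 0.01, 3.05 and 2.87 in H1-2 against -1.48 to -0.16 in H2-3, without overlap. CD79A, its partner, had levels of 5.08, 5.30, 8.10 and 7.35 in H1-2 and 4.55 to 6.60 in H2-3, so that the categories overlapped. Within slide 5 CD79A differed by 0.99 and within slide 6 by -2.86. CD24, which is also found on granulocytes, differed by -0.28 and did not pass within slide 6 (adjusted p = 0.83).

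**Figure D2:**
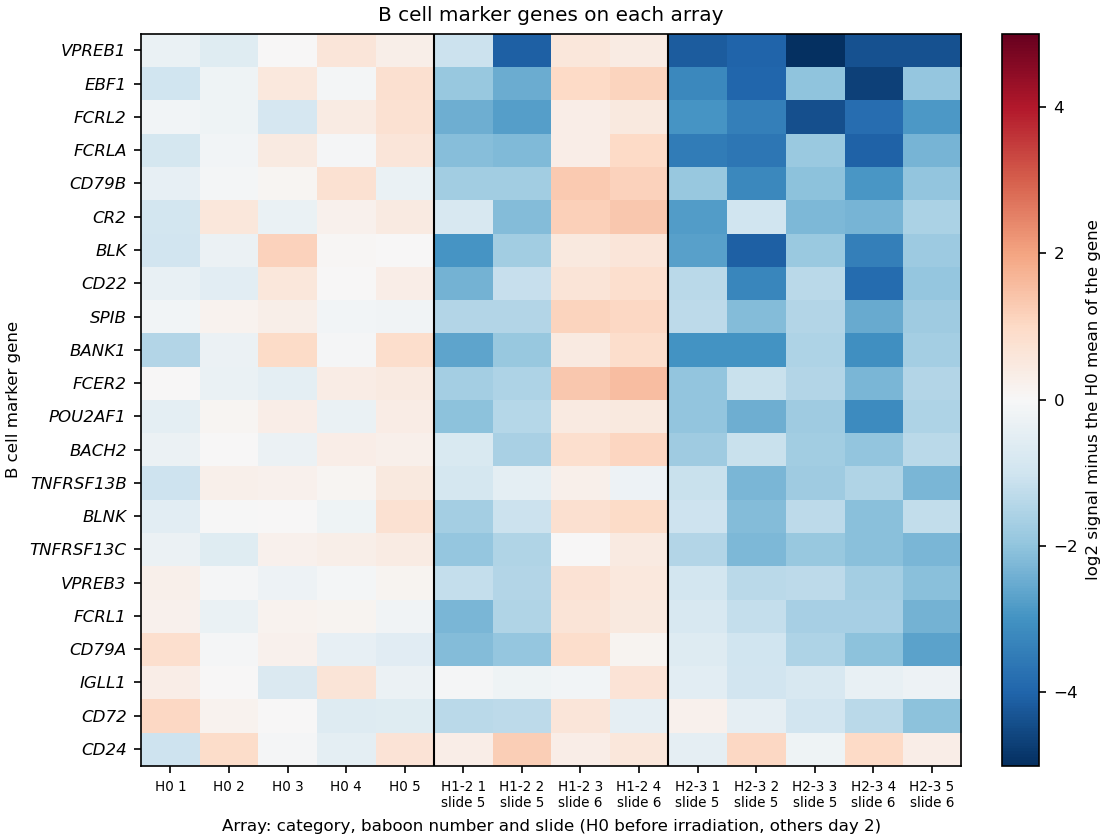
Level of 22 of the 23 tested B cell markers (rows) on the 5 H0 arrays and the 9 arrays of day 2 (columns), as log2 signal minus the gene's H0 mean. H1-2 baboons 3 and 4, both on slide 6, are near or above the H0 arrays for most genes, while H1-2 baboons 1 and 2 and all 5 H2-3 baboons are below them for most genes.

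Genes of antigen presentation by MHC class II had a smaller median difference. Of 13 tested, 9 were lower and 4 higher in H2-3, with a median of -0.36, and 4 had an unadjusted p under 0.05 (background 3.61%), against 2 without H1-2 baboon 3, H1-2 baboon 4 or H2-3 baboon 4. HLA-DOB, a chain of the HLA-DO protein that tunes peptide loading in B cells, had levels of 0.65, 1.10, 2.98 and 2.19 in H1-2 and of -0.17, -0.05, 0.24, -0.39 and 0.14 in H2-3. All H2-3 arrays lay below all H1-2 arrays, and H0 ranged from 0.99 to 2.36. The difference was -1.77 ± 0.46 (SE), or 3.42-fold (limma, adjusted p = 0.508). It was -0.86 within slide 5 and -2.71 within slide 6, where it passed (adjusted p = 0.0026). HLA-DOA, the other chain, differed by -1.46 ± 0.43 (SE) with overlapping categories, but a further kept probe differed by -0.12 only. Of the chains expressed in all antigen-presenting cells, HLA-DRA (-0.36) and HLA-DPA1 (0.01) did not pass within slide 6. These 2 were chosen after their values were seen and do not stand for all such chains. Further kept probes of HLA-DPB1 differed by -0.53 to -0.23 and of HLA-DQA1 by -1.80. Those of HLA-DQB1 differed by -0.82, -0.37 and 0.93. Of the list, 3 of 13 passed as lower within slide 6 (background 9.26%). Some HLA genes are alike in sequence and human probes were used, so a signal may not belong to the named gene alone.

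WNT3, a secreted ligand of the WNT pathway, had the same high and low arrays as the B cell genes. Its levels were 2.52, 1.74, 6.06 and 6.51 in H1-2 baboons 1 to 4 and 1.57, 0.68, 1.02, 0.77 and 1.98 in H2-3 baboons 1 to 5. H0 lay between 4.55 and 5.58. H1-2 baboons 3 and 4 were above every H0 array, and the remaining irradiated arrays were below every H0 array. The difference of -3.00 ± 0.89 (SE), or 8.01-fold, did not pass (limma, adjusted p = 0.508). It was -1.04 within slide 5 and -4.91 within slide 6 (adjusted p = 0.00017), and the difference between slides passed (adjusted p = 0.0082). Of the 29 tested WNT pathway genes the median was 0.02, with 1 higher and 3 lower at an unadjusted p under 0.05 (backgrounds 6.15 and 3.61%). WLS, which carries WNT proteins to the cell surface, differed by 0.12 ± 0.51 (SE), but its 2 other kept probes differed by 0.93 and 0.84. WNT11 exceeded background clearly in 0 of 5 H2-3 and 2 of 4 H1-2 baboons and was at least 1.59-fold lower in H2-3. Under other processing settings its difference ran from -1.63 to -0.13.

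T cell genes had a smaller median difference than B cell genes. The 22 tested markers had a median of -0.42, with 0 higher and 1 lower at an unadjusted p under 0.05 (backgrounds 6.15 and 3.61%). The list's mean level was 2.69, 2.52, 2.99 and 3.36 in H1-2 and 1.92, 2.77, 2.94, 2.38 and 2.55 in H2-3, so the categories overlapped. CD3E, a CD3 chain that signals for the T cell receptor, differed by -0.20 ± 0.23 (SE, adjusted p = 0.773 in limma). CD28, the co-stimulatory receptor, had levels of -0.16, -0.47, 1.10 and 1.06 in H1-2 and of -0.62 to 0.22 in H2-3, and differed by -0.64 ± 0.29 (SE). CD28 passed as lower within slide 6 (-1.52, adjusted p = 0.0041), but the list's count there, 3 of 22 lower, was near the share of all genes (9.26%).

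The 10 tested markers of naive lymphocytes, cells that have not met antigen, had a median of -0.63. CCR7, which homes them to lymph nodes, had levels of 5.22, 4.43, 6.34 and 7.20 in H1-2 and of 5.19, 5.66, 3.20, 3.95 and 4.48 in H2-3. H2-3 baboons 1, 2 and 5 lay above H1-2 baboon 2, so the categories overlapped. The difference was -1.30 ± 0.74 (SE, adjusted p = 0.530 in limma), and it was -0.14 within slide 5 and -2.55 within slide 6 (adjusted p = 0.022). Within slide 6, 7 of the 10 passed as lower and 1 as higher (backgrounds 9.26 and 12.1%).

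NK and cytotoxic cell genes showed no call on slide 6 (backgrounds 12.1% higher and 9.26% lower). The 24 tested had a median of -0.36 over all arrays, -0.56 within slide 5 and -0.09 within slide 6. On slide 5, too, 0 passed, as for all genes there (0%). KLRC1, an NK receptor of the NKG2 family, was well above background in 2 of 5 H2-3 baboons and 2.12-fold lower with dim arrays at the floor. GZMK, granzyme K, differed by -0.96 ± 0.46 (SE), and both genes had overlapping categories. The list was lowest in H2-3 baboon 1 (mean level 0.06) and highest in H2-3 baboon 3 (1.87), so the 5 severe baboons spanned more than the 4 milder ones (1.12 to 1.66).

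Genes of granulocytes and monocytes lay in the opposite direction to B cell genes. All 25 tested markers of mature neutrophils and all 23 of monocytes and macrophages were above 0, with medians of 0.85 and 0.56. At an unadjusted p under 0.05, 7 and 6 were higher (background 6.15%), with 0 passing after adjustment. Under other processing settings these counts ran from 1 to 14 and from 1 to 8. Leaving out H1-2 baboon 3 gave 1 and 1, leaving out baboon 4 gave 2 and 2, and leaving out H2-3 baboon 4 or 5 gave 2 and 5 or 4 and 3. The mean level of the monocyte list was 3.64, 3.52, 2.05 and 2.17 in H1-2 and 3.52, 3.33, 3.26, 3.79 and 3.77 in H2-3, with H0 at 1.44 to 2.58. H1-2 baboons 3 and 4 were thus in the H0 range, and the other 7 irradiated baboons above it. Within slide 6 the medians were 1.72 and 1.33 and 9 and 13 genes passed as higher (background 12.1%). Within slide 5 the medians were 0.06 and -0.14.

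CD14, the monocyte receptor for bacterial lipopolysaccharide, had levels of 9.04, 9.10, 8.54 and 8.42 in H1-2 and of 9.70, 9.46, 8.95, 9.97 and 9.74 in H2-3. Only H2-3 baboon 3 fell below the highest H1-2 array. The difference was 0.79 ± 0.25 (SE), or 1.73-fold (limma, adjusted p = 0.508), with 0.30 within slide 5 and 1.37 within slide 6 (adjusted p = 0.014). LILRB2, an inhibitory receptor of myeloid cells, differed by 1.04 ± 0.37 (SE).

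MARCO, a scavenger receptor that macrophages use to bind bacteria, divided the H1-2 arrays by slide. Its levels were -0.39, 0.86, -3.51 and -3.18 there and 1.22, -0.26, -0.59, 1.75 and 2.05 in H2-3. All 5 H2-3 arrays, H1-2 baboons 1 and 2, and none of the 5 H0 arrays had it well above background. With the floor on the dim arrays the fold was 4.63 over all 9 arrays (limma, adjusted p = 0.508). The difference was -0.11 within slide 5. Within slide 6, where both H1-2 arrays were dim and the size is only bounded, MARCO passed as higher (adjusted p = 0.0022), and the difference between slides passed (adjusted p = 0.0092).

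Several neutrophil genes were lowest in H1-2 baboons 3 and 4, but not all. CSF3R, the receptor for granulocyte colony-stimulating factor, had levels of 9.86, 10.38, 9.10 and 9.19 in H1-2 and 10.16 to 10.91 in H2-3. NCF1, a subunit of the phagocyte oxidase, differed by 1.11 ± 0.39 (SE) and CXCR1, an interleukin 8 receptor, by 0.91 ± 0.39. CD177, a surface protein of activated neutrophils, did so by 1.20 ± 0.72 and was highest in H2-3 baboon 1 at 5.25, with H1-2 baboon 3 above H1-2 baboon 1. Of 19 tested granule genes 17 were above 0, with a median of 0.63, and 3 had an unadjusted p under 0.05 (background 6.15%). That count was 0 without H1-2 baboon 3, 1 without H1-2 baboon 4, H2-3 baboon 4 or H2-3 baboon 5, 2 without H2-3 baboon 1 or 2, 8 without H1-2 baboon 2 and 7 without H2-3 baboon 3. Under other processing settings that count ran from 1 to 8. The granule median was -0.29 within slide 5 and 1.75 within slide 6. LCN2, an iron-binding granule protein, ranged from -2.58 to 5.03 within H1-2 and from 3.29 to 4.22 within H2-3, so its difference of 2.90 carried an SE of 1.18. MPO, the myeloperoxidase of primary granules, was dim on 1 of 4 H1-2 arrays and 2.01-fold higher in H2-3 with that array at the floor. All 9 tested Fc receptors of myeloid cells were above 0, with a median of 0.74 (0.06 within slide 5 and 1.65 within slide 6), and 4 had an unadjusted p under 0.05. There were 0 without H1-2 baboon 3, H1-2 baboon 4 or H2-3 baboon 4, 1 without H2-3 baboon 5 and 2 without H2-3 baboon 1. Other processing settings gave 0 to 4. Among the receptors, FCGR2A, a receptor for IgG, differed by 0.87 ± 0.35 (SE) and by 1.71 within slide 6 (adjusted p = 0.024).

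Inflammatory genes lay mostly higher in H2-3, though none passed over all 9 arrays. Of 28 tested, 27 were above 0 and 12 had an unadjusted p under 0.05 (background 6.15%), with a median of 0.82. Leaving out H1-2 baboon 3 or 4 gave 3 or 2, and leaving out H2-3 baboon 4 or 5 gave 7. Other processing settings gave 4 to 13. IL1R2, the decoy receptor for interleukin 1, had levels of 2.65, 3.46, 1.52 and 1.41 in H1-2 and of 3.69, 2.85, 3.32, 4.41 and 3.98 in H2-3. H2-3 baboons 2 and 3 overlapped H1-2 baboon 2. The difference was 1.39 ± 0.51 (SE), or 2.62-fold (limma, adjusted p = 0.508). It was 0.23 within slide 5 and 2.74 within slide 6 (adjusted p = 0.012). STAT3, which carries the interleukin 6 signal, differed by 0.76 ± 0.29 (SE). ARG2, an arginase, differed by 0.80 ± 0.58 (SE), with -0.57 within slide 5 and 2.35 within slide 6 (adjusted p = 0.046). Within slide 6, 13 of 28 passed as higher (background 12.1%).

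Genes induced by glucocorticoids and by acute stress lay in the same direction. Of 14 glucocorticoid-responsive genes 13 were above 0, with a median of 0.58, and 4 had an unadjusted p under 0.05 (background 6.15%), against 2 without H1-2 baboon 4. The median was 0.03 within slide 5 and 1.28 within slide 6. TSC22D3, which encodes the anti-inflammatory protein GILZ, had levels of 7.63, 7.53, 7.03 and 7.26 in H1-2 and of 7.81, 8.08, 7.55, 9.10 and 8.69 in H2-3. Only H2-3 baboon 3 overlapped the milder category. The difference was 0.88 ± 0.32 (SE), with 0.23 within slide 5 and 1.75 within slide 6 (adjusted p = 0.010). DUSP1, a phosphatase that shuts off MAP kinases, differed by 1.41 ± 0.46 (SE). FOSB, an immediate early transcription factor, was dim on 1 of 4 H1-2 arrays and 2.52-fold higher with that array at the floor. Of the 24 heat shock and immediate early genes, 18 were above 0 and 5 had an unadjusted p under 0.05, against 2 without H1-2 baboon 3 or 4 and 8 without H1-2 baboon 1.

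**Figure D3:**
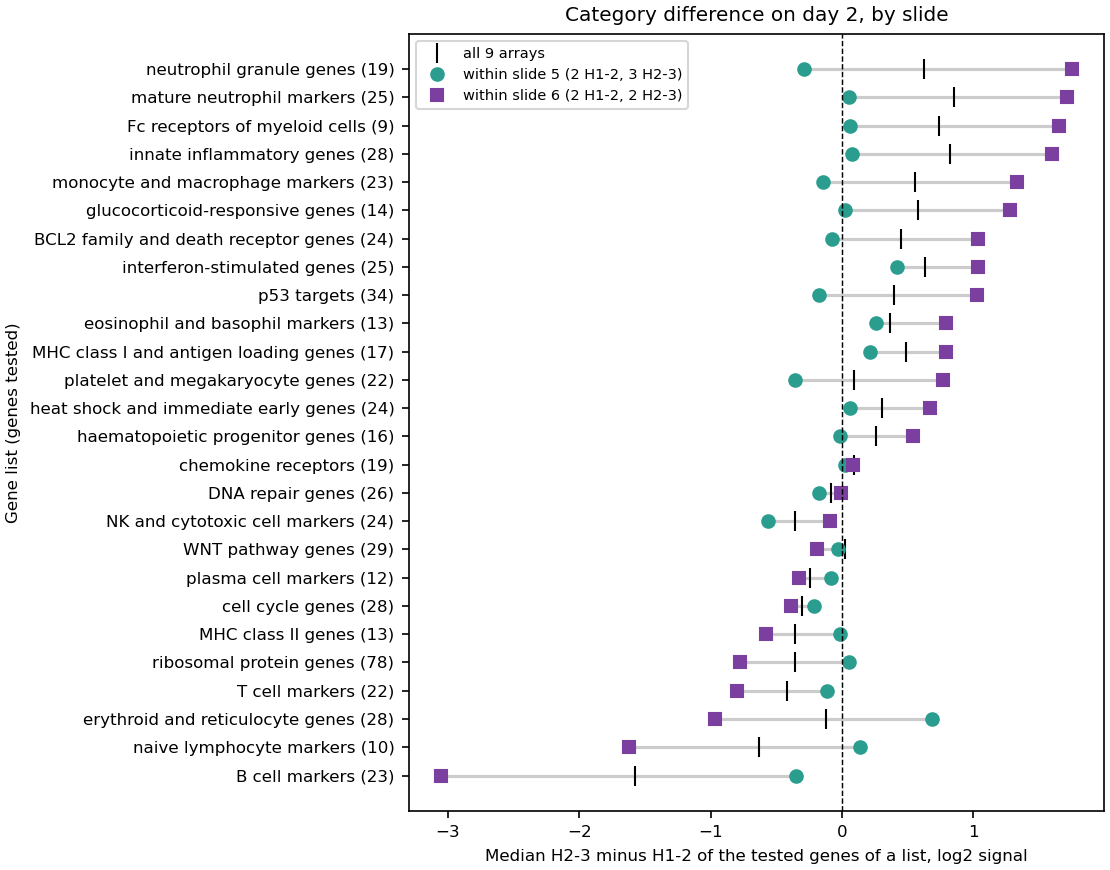
Median H2-3 minus H1-2 difference on day 2 (log2 signal, x axis) of the tested genes of 26 lists, over all 9 arrays (bar), within slide 5 (circle) and within slide 6 (square). On slide 6 the medians run from -3.06 for B cell markers to 1.75 for neutrophil granule genes. On slide 5 they run from -0.56 to 0.69. Several lists lie above 0 on both, among them the interferon, MHC class I, and eosinophil and basophil lists. For some of these, such as mature neutrophil markers (0.06 and 1.72), the slide 5 median is close to 0.

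Interferon-stimulated genes had a median above 0 on both slides, though none passed over all 9 arrays. All 25 tested were above 0, with a median of 0.63, and 10 had an unadjusted p under 0.05 (background 6.15%). In 3 of them, DDX58, IFI44L and IFIT3, the categories did not overlap (background 0.568%). Within slide 5 the median was 0.42, and 1 of 25 had an unadjusted p under 0.05 as higher (background 5.11%). Within slide 6 it was 1.04, and 5 of 25 passed (background 12.1%). For the difference between slides 0 passed (backgrounds 4.1% more positive and 7.08% more negative on slide 6). On the list's mean level H1-2 lay at 1.06, 1.74, 0.88 and 1.02 and H2-3 at 2.27, 1.72, 1.41, 2.15 and 1.81, with H0 spread from 0.66 to 2.08. The lowest H2-3 baboons, 2 and 3, overlapped H1-2 baboon 2. Leaving out H1-2 baboon 3, H1-2 baboon 4 or H2-3 baboon 4 gave 5, 5 or 4, and the percentile over detected probes gave 6.

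GBP2, a GTPase induced by interferon gamma, had levels of 1.37, 2.96, 1.45 and 1.36 in H1-2 and of 4.97, 2.76, 3.30, 3.66 and 3.01 in H2-3. H1-2 baboon 2 was the array that overlapped H2-3. The difference was 1.75 ± 0.52 (SE), or 3.37-fold (limma, adjusted p = 0.508), with 1.51 within slide 5 and 1.93 within slide 6, and passed on neither (adjusted p = 0.093 on slide 6). DDX58, the RNA sensor RIG-I, had levels of 3.54, 3.78, 3.44 and 3.43 in H1-2 and of 4.39, 3.90, 3.93, 4.47 and 4.20 in H2-3. Every H2-3 array lay above every H1-2 array, by a difference of 0.63 ± 0.20 (SE), and within slide 6 it passed (0.90, adjusted p = 0.047). On day 1 the same 2 genes had differed by -0.45 and -0.03.

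MHC class I and antigen loading genes also lay higher in H2-3. Of 17 tested, 14 were above 0 and 11 had an unadjusted p under 0.05 (background 6.15%), with a median of 0.49. In 2 of them, HLA-E and PSMB8, the categories did not overlap (background 0.568%). Quantile normalisation gave 4 and the percentile over detected probes 7. Leaving out H1-2 baboon 3 or 4 or H2-3 baboon 4 gave 5 each, and without H2-3 baboon 5 there were 6. PSMB9, a subunit of the immunoproteasome that cuts peptides for class I, had levels of 5.998, 6.88, 6.19 and 5.89 in H1-2 and of 7.10, 6.92, 6.69, 7.20 and 6.88 in H2-3. H2-3 baboon 3 lay below H1-2 baboon 2, and H2-3 baboon 5 was level with it. The difference was 0.72 ± 0.22 (SE), or 1.64-fold (limma, adjusted p = 0.508), with 0.46 within slide 5 and 1.00 within slide 6 (adjusted p = 0.041). HLA-F, a class I molecule of restricted expression, differed by 0.63 ± 0.21 (SE) and passed within slide 6 (1.05, adjusted p = 0.020). Its mean levels were 11.15 in H1-2 and 11.78 in H2-3, against 7.24 and 7.67 for the list. The limit given above for HLA probes applies here too, so the signal may not belong to HLA-F alone. Of the list, 9 of 17 passed as higher within slide 6 (background 12.1%) and 0 within slide 5. The 3 genes below 0, CALR, ERAP2 and PDIA3, serve the folding of class I and the trimming of its peptides.

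**Figure D4:**
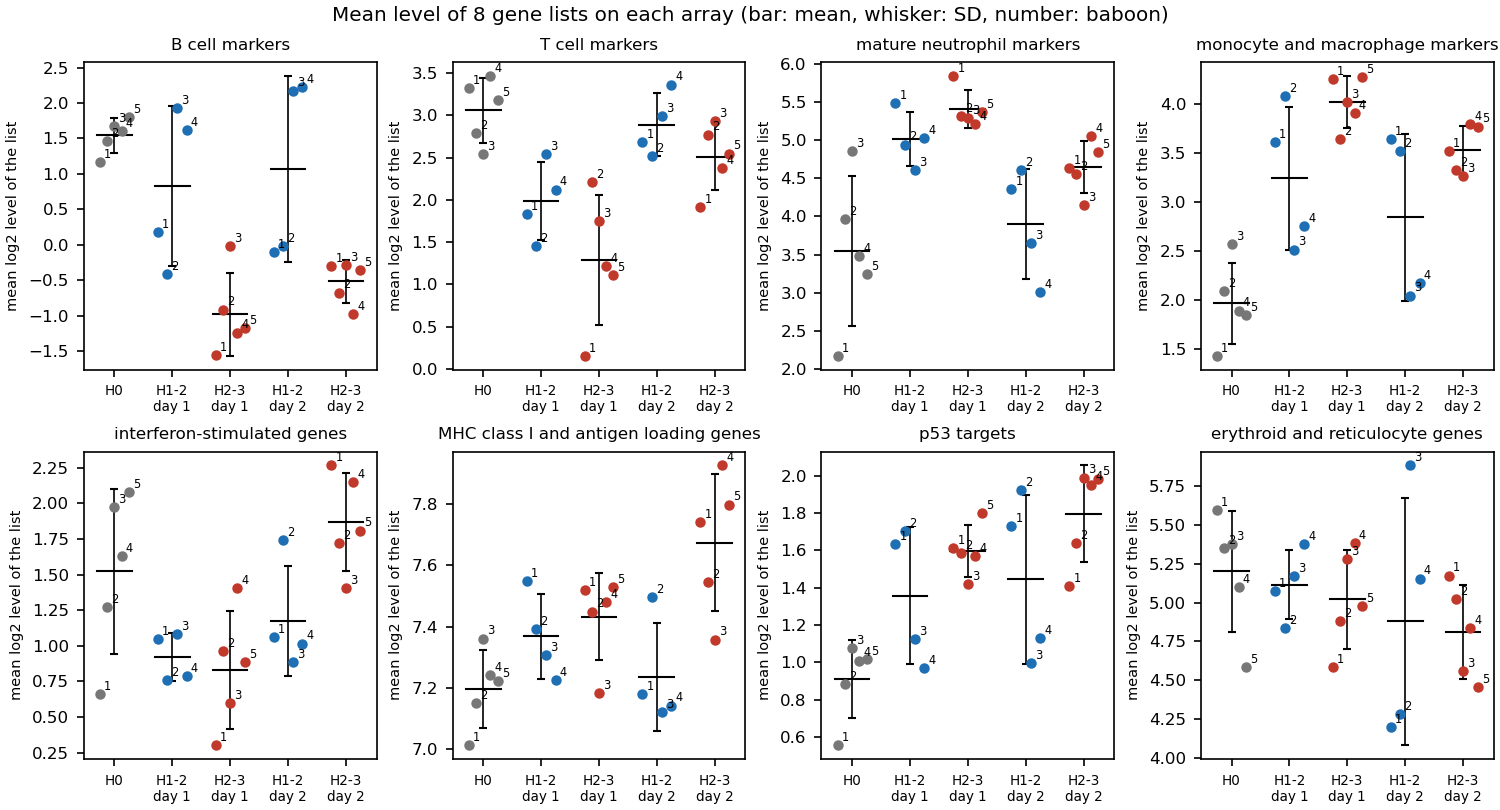
Mean level (log2 signal minus the array's 75th percentile) of the tested genes of 8 lists on each array, by group, with the group mean (bar), the SD (whisker) and the baboon number beside each point. For B cell markers on day 2, H1-2 baboons 3 and 4 lie at 2.18 and 2.23 and H1-2 baboons 1 and 2 at -0.10 and -0.02; for MHC class I genes 4 of 5 H2-3 arrays lie above 4 of 4 H1-2 arrays on day 2.

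By the mean level of their list, targets of p53 lay above the H0 range on 8 of 9 arrays, and none passed between the categories. Of 34 tested, 31 were above 0, the median was 0.39 and 4 had an unadjusted p under 0.05 (background 6.15%), against 0 without H1-2 baboon 3 or baboon 4, 11 without H1-2 baboon 2, 8 without H2-3 baboon 1 and 1 or 2 without H2-3 baboon 4 or 5. Other processing settings gave 0 to 5 higher at that p. The mean level was 1.73, 1.92, 1.00 and 1.13 in H1-2 and 1.41, 1.64, 1.99, 1.95 and 1.98 in H2-3, against 0.56 to 1.08 in H0. H1-2 baboon 3 was within the H0 range. Within slide 6, 14 of 34 passed as higher in H2-3 (background 12.1%, median 1.03). Within slide 5 the median was -0.18.

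CDKN1A, the inhibitor of cell cycle kinases p21, had levels of -0.53, -0.18, -2.06 and -2.97 in H1-2 and of -0.53, -2.19, -0.12, -0.68 and -0.40 in H2-3. The H1-2 arrays had it well above background in 3 of 4 cases, the H2-3 arrays in 5 of 5 and the H0 arrays in 1 of 5. The difference was 0.65 ± 0.56 (SE, adjusted p = 0.686 in limma), with -0.59 within slide 5, and it passed as higher within slide 6 (adjusted p = 0.032). H2-3 baboon 2 was the low array of the severe category. Under other processing settings the CDKN1A difference ran from -0.16 to 0.65.

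DDB2, which recognises damaged DNA, had levels of 4.58, 5.41, 3.51 and 3.92 in H1-2 and of 4.12 to 5.52 in H2-3, all above the highest H0 array at 3.24. Its difference was 0.55 ± 0.35 (SE, adjusted p = 0.575 in limma), and 1.32 within slide 6 (adjusted p = 0.025). MDM2, the ligase that degrades p53, differed by 0.39 ± 0.25 and passed within slide 6 (1.04, adjusted p = 0.013). Its 3 other kept probes differed by 0.73, 0.98 and 0.81 over all arrays. BAX, a killer protein at mitochondria, differed by 0.30 ± 0.36, FDXR, a mitochondrial reductase, by -0.31 ± 0.26, and AEN, a nuclease of apoptosis, by 0.13 ± 0.41. Other kept probes of BAX and AEN differed by 0.12 and 0.57. Under other processing settings the MDM2 difference ran from -0.01 to 0.73 and that of BAX from -0.15 to 0.30. FDXR had mean levels of 2.98 in H1-2 and 2.66 in H2-3, below its H0 mean of 3.19. BTG2 and GADD45B, brakes on growth after damage, had the lowest p of the remaining genes, with differences of 0.58 ± 0.26 and 0.65 ± 0.26.

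Genes of cell death lay in the same direction. Of 24 tested BCL2 family and death receptor genes 19 were above 0, with a median of 0.45 (-0.07 within slide 5 and 1.04 within slide 6), and 5 had an unadjusted p under 0.05 (background 6.15%). There were 0 without H1-2 baboon 3 or 4, 2 without H2-3 baboon 4, 3 without H2-3 baboon 2 or 5 and 9 without H1-2 baboon 2. Other processing settings gave 1 to 6. MCL1, a survival protein of myeloid cells, differed by 0.76 ± 0.32 (SE) and by 1.59 within slide 6 (adjusted p = 0.013). PMAIP1, which encodes the death protein NOXA, differed by 0.75 ± 0.35 and by 0.45 within slide 5.

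DNA repair and proliferation genes lay slightly lower in H2-3 by their medians, and none passed. The 26 repair genes had a median of -0.09, with 1 higher and 4 lower at an unadjusted p under 0.05 (backgrounds 6.15 and 3.61%). The 4 became 0 without H1-2 baboon 4 and 1 without H1-2 baboon 3, H2-3 baboon 1 or H2-3 baboon 4. POLB, the polymerase of base excision repair, had levels of -0.39, -0.25, -0.54 and -0.45 in H1-2 and of 0.26, 0.07, 0.02, 0.05 and 0.09 in H2-3. The categories did not overlap, and the difference of 0.51 ± 0.17 (SE) was of like size on slide 5 (0.44) and slide 6 (0.57), passing on neither. PARP1, which marks DNA breaks, differed by -0.88 ± 0.34 (SE) and passed within slide 6 (-1.48, adjusted p = 0.014). The 28 cell cycle genes had a median of -0.31, 20 of them below 0, with RRM1, a subunit of ribonucleotide reductase, at -0.58 ± 0.26. TYMS, the thymidylate synthase, differed by 0.05 ± 0.48.

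Red cell genes ran in opposite directions on the 2 slides. The 28 tested erythroid and reticulocyte genes had a median of -0.12 over all arrays, 0.69 within slide 5 and -0.96 within slide 6. Their mean level was 4.20, 4.28, 5.88 and 5.15 in H1-2 baboons 1 to 4, so that the severe baboons (4.46 to 5.17) lay above H1-2 baboons 1 and 2 and mostly below baboons 3 and 4. Within slide 6, 11 passed as lower and 1 as higher in H2-3 (backgrounds 9.26 and 12.1%). Within slide 5, 9 had an unadjusted p under 0.05 as higher (background 5.11%) and 0 passed. For 10 the difference between slides passed as more negative on slide 6 (background 7.08%). The median over all arrays turned positive without H1-2 baboon 3 (0.25), H1-2 baboon 4 (0.10) or H2-3 baboon 5 (0.06). Under other processing settings it ran from -0.23 to 0.31. EPB42, a protein of the red cell membrane chosen after its values were seen, had levels of 3.39, 3.63, 6.48 and 5.91 in H1-2 and of 3.38 to 5.68 in H2-3. The adult globin gene HBA2 differed by 0.13 only.

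Ribosomal protein genes lay slightly lower in H2-3, and none passed over all 9 arrays. Of 78 tested, 77 were below 0, with a median of -0.36, and 2 had an unadjusted p under 0.05 (background 3.61%). Quantile normalisation gave 20 and the percentile over detected probes 14. The count was 59 without H1-2 baboon 2 and 0 without H1-2 baboon 3, H1-2 baboon 4, H2-3 baboon 1 or H2-3 baboon 4. The mean level was 7.57, 6.89, 8.24 and 8.05 in H1-2 and 7.13 to 7.53 in H2-3. H1-2 baboon 2 was the lowest of all 9 arrays and H1-2 baboons 3 and 4 the highest. Within slide 6, 30 of 78 passed as lower (background 9.26%). RPL37, of the large subunit, differed by -0.62 ± 0.27 (SE), but its other kept probe differed by -0.01.

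Platelet genes had no call on either slide (backgrounds 0% on slide 5, and 12.1% higher and 9.26% lower on slide 6). Of 22 tested the median was 0.09, with -0.36 within slide 5 and 0.77 within slide 6. Of these, 15 were above 0 and 0 had an unadjusted p under 0.05 (backgrounds 6.15 and 3.61%). The mean level spread from 2.15 to 4.23 within H1-2 against 2.89 to 3.99 in H2-3. The median ran from -0.33 to 0.38 with 1 array left out, the extremes being H1-2 baboons 4 and 3. Under other processing settings it ran from -0.31 to 0.09. Of 13 eosinophil and basophil markers the median was 0.36 and of 12 plasma cell markers -0.24, and XBP1, a transcription factor of secretory cells, differed by 0.39 ± 0.17 (SE). The 16 haematopoietic progenitor genes had a median of 0.26, with LMO2 at 0.61 ± 0.27 and RUNX1 at 0.42 ± 0.19. The 4 other kept RUNX1 probes differed by 0.10, 0.06, 0.23 and -0.29. The 19 chemokine receptors had a median of 0.10, and CCRL2, a receptor-like protein of activated myeloid cells, differed by 1.00 ± 0.43.

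Outside the lists, several genes separated the categories on both slides. They were named for their low p in this comparison, so that the fact of their difference is no finding by itself, and none passed over all 9 arrays. IGFBP2, a binding protein of insulin-like growth factors, had levels of 1.70, 3.19, 1.91 and 3.55 in H1-2 and of 5.41, 5.44, 5.48, 6.001 and 4.64 in H2-3. Every H2-3 array lay above every H1-2 array, and H0, at 3.30 to 5.06, overlapped both. The means were 5.39 ± 0.48 (SD, n = 5) and 2.59 ± 0.92 (SD, n = 4). The difference was 2.80 ± 0.67 (SE), or 6.99-fold (limma, adjusted p = 0.420), with 3.00 within slide 5 and 2.59 within slide 6, which passed on neither (adjusted p = 0.053 on slide 6).

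TSPAN1, a tetraspanin of the cell surface, had levels of -1.49, -1.54, -1.17 and -1.79 in H1-2 and of -0.27, -0.48, -0.98, 0.13 and -0.14 in H2-3. The categories did not overlap, with H2-3 baboon 3 nearest to H1-2. The difference was 1.15 ± 0.23 (SE), or 2.22-fold, the smallest p of all genes named (limma, adjusted p = 0.420), with 0.94 within slide 5 and 1.48 within slide 6, where it passed (adjusted p = 0.010).

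COL7A1, the collagen of anchoring fibrils, had levels of -0.51, -0.46, -0.71 and -0.71 in H1-2 and of 0.81, 0.65, 0.54, 1.23 and 0.30 in H2-3, above H0 at -0.97 to 0.03. The difference was 1.30 ± 0.30 (SE), with 1.15 within slide 5 and 1.47 within slide 6 (adjusted p = 0.018). UNC45B, a chaperone of muscle myosin, was above background in 5 of 5 H2-3, 0 of 4 H1-2 and 1 of 5 H0 baboons. It was at least 4.33-fold higher in H2-3 (limma, adjusted p = 0.508), with no exact size on either slide since all H1-2 arrays were dim. Under other processing settings its difference ran from 0.92 to 3.87.

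CD200R1, an inhibitory receptor of myeloid cells, had levels of 0.68, 1.10, 1.18 and 0.31 in H1-2 and of 2.00, 2.07, 1.80, 2.72 and 2.08 in H2-3. The categories did not overlap, but a further kept probe of the gene differed by 0.04 only. HHIP, an inhibitor of Hedgehog signalling, exceeded background clearly in 2 of 4 H1-2 baboons and was 3.75-fold higher in H2-3 when dim arrays took the floor, and its other kept probe differed by 0.95. PARG, which removes the poly(ADP-ribose) that PARP1 makes, did so in 1 of 4 and was 1.41-fold higher.

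RSPH6A, a protein of the radial spoke of cilia and sperm tails, had levels of -0.80, 0.14, -0.41 and -0.11 in H1-2 and of -2.82, -3.32, -3.41, -3.92 and -2.10 in H2-3. H2-3 lay below every H0 array (-1.93 to 0.62), and it was well above background on 2 of 5 H2-3 arrays. With the floor the fold was 6.32 (limma, adjusted p = 0.420), and it passed as lower within slide 6 (adjusted p = 0.032). PLSCR3, a scramblase of mitochondrial lipids, separated the categories by -0.80 ± 0.23 (SE). GTSE1, a regulator of p53 in dividing cells, differed by -1.79 ± 0.39 with overlapping categories.

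Among the remaining genes with the lowest p, some lay apart mainly on slide 6. RASL10A, a small GTPase of the Ras family, differed by 0.73 within slide 5 and by 2.26 within slide 6. MAP6, a microtubule protein, was dim on 2 of 4 H1-2 arrays and 2.00-fold higher in H2-3 with those at the floor. ODZ3, a teneurin, was dim on 1 of 4 and 2.13-fold higher. KCNMB4, a potassium channel subunit, had levels of -1.11, -1.46, 1.01 and 0.84 in H1-2 and of -2.41 to -1.33 in H2-3, and its difference between slides passed (adjusted p = 0.032). SETBP1, a SET-binding protein, differed by -1.38 ± 0.40 (other kept probes -1.33 and -0.55) and RBBP9, a serine hydrolase, by -1.11 ± 0.30. ZNF286B, a zinc finger gene, was dim on 2 of 5 H2-3 arrays and 2.20-fold lower with those at the floor, and CWF19L1 differed by -0.74 ± 0.21.

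**Figure D5:**
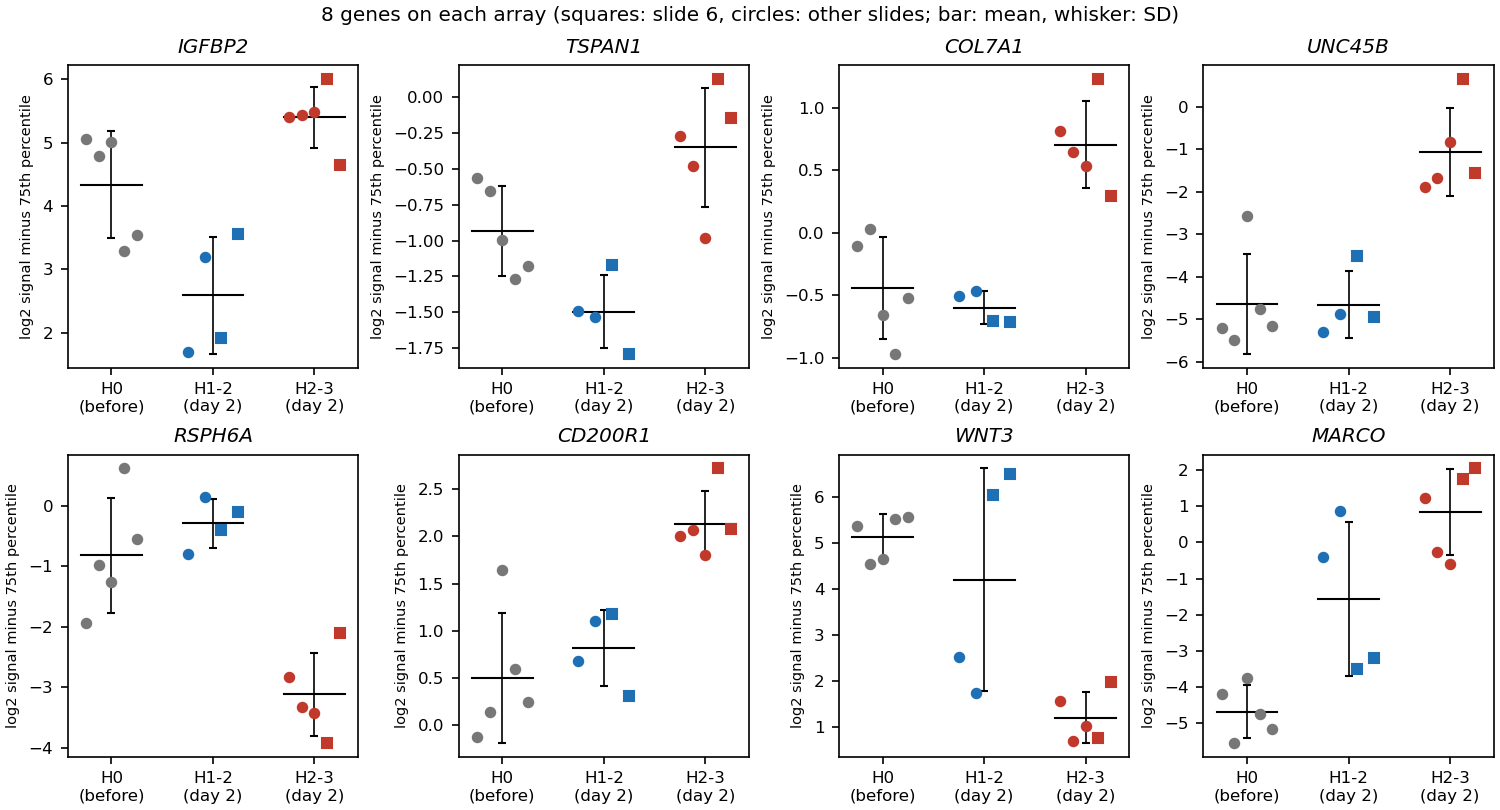
Level (log2 signal minus the array's 75th percentile) of 8 genes on the 5 H0 arrays and the 4 H1-2 and 5 H2-3 arrays of day 2, with slide 6 as squares, the group mean as a bar and the SD as a whisker. IGFBP2, TSPAN1, COL7A1, UNC45B, CD200R1 and RSPH6A do not overlap between categories, while WNT3 and MARCO divide H1-2 into slide 5 and slide 6 arrays.

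The day 2 difference was set beside that of day 1 in the same numbered baboons. On day 1, 0 of 21130 genes passed (0%), and 1224 had an unadjusted p under 0.05 (5.79%), 468 higher (2.21%) and 756 lower (3.58%). The difference between the days was itself tested, and 0 passed (0%), with 421 at an unadjusted p under 0.05 (1.99%). That fit did not pair the days of a baboon. With the baboon as a block 0 passed as well, so no gene can be called particular to day 2. B cell markers had a median of -1.85 on day 1 against -1.57 on day 2, and 17 of 23 had an unadjusted p under 0.05 on day 1. The day 1 arrays lay on other slides, and that of H2-3 baboon 1 lay on a slide without H1-2 day 1 arrays. Within slide 4, with H1-2 baboons 1 and 2 and H2-3 baboons 2 and 3, the median was -0.11. Within slide 3, with H1-2 baboons 3 and 4 and H2-3 baboons 4 and 5, it was -3.03 and 17 of 23 passed as lower (background 1.48%). A small median in the first set of baboons and a large one in the second were thus seen on both days. WNT3 differed by -0.43 within slide 4 and -5.51 within slide 3, which lay in the same order as on day 2.

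Other lists differed between the days by description. Interferon-stimulated genes had a median of -0.06 on day 1 and 0.63 on day 2. In the unpaired fit, 7 of 25 had an unadjusted p under 0.05 for the difference between days (background 1.14%). MHC class I genes went from 0.06 to 0.49, with 3 of 17. Ribosomal protein genes went from 0.11 to -0.36, with 3 of 78 (background 0.857%). IGFBP2 had differed by 0.75 on day 1, with -1.22 within slide 4 and 2.59 within slide 3. For this gene the slides therefore had opposite signs on day 1 and the same sign on day 2, a difference that was not tested between slides and days together.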

How the data were processed

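Whole blood of 9 irradiated baboons on day 2 was compared by the HARS category that each developed later, with day 1 and H0 arrays as background. The deposited values are spot intensities of 1-colour human Agilent arrays, processed with Agilent Feature Extraction 10.7.3.1 per the submitters' processing notes, and intensity here is the processed signal that the deposited files give. The log2 of each deposited intensity was taken and the array's 75th percentile subtracted. Control spots were left out, spots of a probe were averaged without those flagged as outliers where others of the probe were not, and probes well above background on at least 4 arrays were kept, which left 27215 of 50599 probes and 21130 genes. A gene is read from its kept probe with the highest mean signal. limma 3.58.1 in R 4.3.3 (data.table, 1.17.8, statmod 1.5.0) was fitted over all arrays, with Benjamini-Hochberg adjustment over all genes and a threshold of 0.05. It was tested on simulated data. The authors' deposited table of log2 values correlated with these values at 0.998 to 1.000 per array, with a median of 4.70 in each column, and how it was centred is not given. A dim group's fold is a bound under the main settings. It is the bright group's mean, dim arrays included, over the lowest signal well above background or the probe's own, whichever is higher.

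The genes named are the 10 with the smallest p in each direction (with a gene symbol and well above background on every array of the higher category, since none passed), the 2 with the smallest p in each list, some of which are left out, and a fixed set. The fits within slides and without both H1-2 arrays of slide 6 were chosen after seeing the data. The members and lists were chosen with earlier results of these data known. Baboons with the same number in the 2 categories are different animals, and their deviations correlated at -0.21 to 0.02, so they were not paired. The same baboon on days 1 and 2 correlated at 0.05 to 0.44. The pairing by animal comes from the labels and entered only an alternative fit. Scans give no read depth, so the number of arrays limits the precision. The values of 1 B cell marker are not reported here by name, though it is counted in its list.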

Additional observations from a re-analysis of the deposited data

Results flagged for a closer look

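On day 2, 13 of 216 groups of values (named genes and list levels, in each category) held 1 array whose gap to the nearest other array was large for the group's range. Chance flags about 1 in 20 groups, so these are given as values. Among H1-2 arrays baboon 2 stood apart for RBBP9, at -1.46 against -0.88 to -0.80. It did so for GBP2, at 2.96 against 1.36 to 1.45, and for the MHC class I list, at 7.50 against 7.12 to 7.18.

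Among H2-3 arrays baboon 1 stood apart for POLB at 0.26 (the others 0.02 to 0.09), RRM1 at 0.79 (1.73 to 2.04), CD177 at 5.25 (3.48 to 3.99) and the BCL2 family list at 1.75 (2.09 to 2.18). Baboon 2 stood apart for the p53 targets CDKN1A at -2.19 (-0.68 to -0.12) and MDM2 at 2.47 (2.99 to 3.11), and for WLS at 2.33 (4.28 to 4.87). Baboon 3 stood apart for SIT1, a signalling adaptor of T cells, at 1.48 (-0.30 to 0.21) and LILRB2 at 5.14 (5.84 to 6.12). Baboon 5 stood apart for PARG at -2.22 (-2.86 to -2.67).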

How the results depend on the processing

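The count of 0 genes passing on day 2 was 1 without the filter on dim probes and 4507 within slide 6, and 0 under the other settings, the replicate block by baboon and by number included. On day 1 it was 17 with the number as a replicate block, 9 with array weights and 440 within slide 3, and 0 to 14 with 1 replicate left out. The 1300 genes higher at an unadjusted p under 0.05 became 708 with the percentile over detected probes, 609 with array weights, 224 without both H1-2 arrays of slide 6, 4377 within slide 6, and 381 to 2556 with 1 replicate left out. The 762 lower became 1353 with the percentile over detected probes, 1193 without the filter, 171 without both H1-2 arrays of slide 6, 230 within slide 5, 3619 within slide 6, and 261 to 1484 with 1 replicate left out. The causes were not tested. In the planned settings that keep every array, 77 of 82 named genes and 22 of 26 list medians kept their sign. The genes that did not were CDKN1A, MDM2, BAX, WLS and TYMS. The lists that did not were those of WNT pathway, platelet, erythroid and chemokine receptor genes. Slide and baboon cannot be told apart, and 4 against 5 arrays limit what can be called.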
